A study of Mus musculus with 4 samples.

Results

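The replication-dependent histone genes are the 59 genes, of 22222 in the deposited expression table, whose symbols place them in the mouse histone clusters Hist1 to Hist4. They comprise 6 linker histone H1 genes, 13 H2A, 17 H2B, 12 H3 and 11 H4 genes, and the class was read from the symbol. These genes make the bulk histone proteins that package newly copied DNA, and their transcription rises as cells enter S phase. Their messengers are unusual in that most end in a short stem-loop in place of a poly(A) tail. The stem-loop is bound by SLBP, the stem-loop binding protein, and is cut with the help of the U7 small nuclear RNP. When replication stops, the messengers are degraded quickly, so histone messenger levels are commonly read together with those of replication genes.

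The cells came from keratoacanthomas, mouse skin tumours that can regress without treatment, which arose during 20 weeks of treatment with the carcinogen DMBA. Tumours were taken 1 week after DMBA was stopped (2 mice) or while still on DMBA (week 0, 2 other mice). Each of the 4 libraries was made from cells gated for Tomato and for surface P-cadherin, labelled Epi. The sources used here do not give mouse strain, age, sex or the driver of the Tomato label. RNA was depleted of ribosomal RNA rather than selected for poly(A), so transcripts without a tail were sequenced. Values are scaled CPM, the reads of a gene relative to a library size that the authors scaled. Since they are not divided by gene length, levels are compared between libraries and not between genes. Each library is 1 mouse, and values stand in the order replicate 1, replicate 2. The comparison asks how histone messengers differed in the sorted tumour cells after the carcinogen was withdrawn.

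The libraries held 5551937 and 7662159 recovered reads at 1 week, against 9678682 and 5635945 on DMBA, and the members took 3153 and 5065 of these at 1 week, against 9232 and 3512 on DMBA. On-DMBA replicate 1 was highest in markers of the labelled cell type and lowest in fibroblast and myeloid markers. Both 1-week libraries and on-DMBA replicate 2 held high fibroblast and myeloid levels, which the Epi label does not name. On-DMBA replicate 2 was also the lowest in summed epithelial markers. Cdh3, which encodes the sorted antigen P-cadherin, was at 42.8 and 30.4 scaled CPM at 1 week and 325 and 3.23 on DMBA. The summed level of 6 epithelial markers, among them Krt14 and Cdh3, was 3573 and 3024 scaled CPM at 1 week and 40545 and 474 on DMBA. The sum of 6 fibroblast markers was 45943 and 48532 at 1 week and 161 and 40591 on DMBA, and that of 6 myeloid markers was 5175 and 9720 at 1 week and 9.14 and 13259 on DMBA. The sum of 4 endothelial markers was 458 and 930 at 1 week and 5.7 and 145 on DMBA, and that of 4 pericyte and smooth muscle markers was 563 and 1116 at 1 week and 101 and 152 on DMBA. The sum of 4 T cell markers was 5.16 and 16.8 at 1 week and 0.712 and 2.69 on DMBA. None of these markers was at 0 in any library. The on-DMBA replicates thus differed from each other in the epithelial, fibroblast and myeloid sums by far more than the 1-week replicates did. The pericyte and smooth muscle sum differed more between the 1-week replicates, but its median gene did not. That median was -1.80 log2 units for on-DMBA replicate 1 minus replicate 2 and 1.19 for 1-week replicate 2 minus replicate 1. The same medians were -4.28 and 1.06 for endothelial markers, and -0.75 and 1.17 for the 3 T cell markers past the filter on low values. The class medians and the calls of the histone genes are therefore also given with each on-DMBA library alone.

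The element that defines these messengers could be read directly. In the GENCODE M21 transcript models (GRCm38) a match to the histone stem-loop consensus, 16 bases long, was found in 39 of the 59 members, against 60 of 21819 other protein-coding genes (0.275%). Models of the other 20 members hold no match, which says only that these letters are not in those models. Sites from each class are shown 5′ to 3′ with 5 bases on either side and the stem-loop in capitals, to let the stem and loop be compared.
Hist1h1c (H1, chr13:23739507-23739532, plus strand): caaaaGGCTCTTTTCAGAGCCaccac
Hist1h2ab (H2A, chr13:23751567-23751592, plus strand): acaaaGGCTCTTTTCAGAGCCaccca
Hist2h2ac (H2A, chr3:96220413-96220438, minus strand): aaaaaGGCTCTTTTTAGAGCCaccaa
Hist1h2bg (H2B, chr13:23571838-23571863, plus strand): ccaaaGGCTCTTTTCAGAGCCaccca
Hist1h3g (H3, chr13:23535884-23535909, plus strand): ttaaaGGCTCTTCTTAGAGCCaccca
Hist1h4d (H4, chr13:23581945-23581970, plus strand): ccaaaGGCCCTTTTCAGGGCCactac
Hist1h4b (H4, chr13:23757361-23757386, plus strand): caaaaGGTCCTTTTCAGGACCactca
The form printed for Hist1h1c was the commonest, with 21 of the 39 matches, and it occurred in the H1, H2A, H2B and H3 classes. The H4 genes used other stems, as the last sites show: all 10 H4 matches had a different stem sequence, paired on both arms. In 23 members the model ran on for at least 100 bases beyond the stem-loop, and in 16 it ended within that distance.

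Some promoter motifs differed in frequency between the classes. A RefSeq promoter (GRCm38.p6, 250 bases before to 50 bases after the start) was found for 53 members, giving 54 promoters because Hist1h2be has 2. Motifs were searched on both strands by their letters. Some H2A and H2B genes are close neighbours whose promoter windows overlap, so the same site can be counted in both classes. Overlapping matches were allowed, and none of those printed overlap. CCAAT, the binding motif of the factor NF-Y, was present in all 44 promoters of H1, H2A, H2B and H3 genes and in 3 of 10 H4 promoters, against 37.3% of 32797 other promoters. ATTTGCAT, the octamer bound by Oct1, was present in 7 of 13 H2A and 7 of 15 H2B promoters, in 0 of the 26 promoters of the other 3 classes, and in 1.7% of other promoters. AAACACA, known as the H1 box, was present in 5 of 6 H1, 2 of 13 H2A and 2 of 15 H2B promoters, in none of the H3 or H4 promoters and in 7.17% of other promoters. The TATA motif TATAAA was present in 31 of the 54 promoters and in 13.5% of other promoters. A match is a description of these letters and not evidence of binding. The 150 bases before the start of 5 members are printed with the matches in capitals, to show 1 arrangement from each of the H2B, H3 and H4 classes and 2 from H1, whose members differed in pattern between the libraries.
Hist1h1b (chr13:21780626-21780775, minus strand): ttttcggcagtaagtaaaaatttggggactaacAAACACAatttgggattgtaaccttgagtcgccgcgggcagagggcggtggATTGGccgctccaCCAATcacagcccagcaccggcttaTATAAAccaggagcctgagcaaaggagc
Hist1h1c (chr13:23738657-23738806, plus strand): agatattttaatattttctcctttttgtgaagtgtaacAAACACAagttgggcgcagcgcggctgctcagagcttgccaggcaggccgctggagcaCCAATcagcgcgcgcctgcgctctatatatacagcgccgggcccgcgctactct
Hist1h2bg (chr13:23571250-23571399, plus strand): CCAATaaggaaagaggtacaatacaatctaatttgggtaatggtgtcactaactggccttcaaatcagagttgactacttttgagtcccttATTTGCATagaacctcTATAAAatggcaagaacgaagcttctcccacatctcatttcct
Hist1h3g (chr13:23535268-23535417, plus strand): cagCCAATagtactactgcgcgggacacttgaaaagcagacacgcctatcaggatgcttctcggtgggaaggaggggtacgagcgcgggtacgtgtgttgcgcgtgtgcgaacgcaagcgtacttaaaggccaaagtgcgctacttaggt
Hist1h4d (chr13:23581418-23581567, plus strand): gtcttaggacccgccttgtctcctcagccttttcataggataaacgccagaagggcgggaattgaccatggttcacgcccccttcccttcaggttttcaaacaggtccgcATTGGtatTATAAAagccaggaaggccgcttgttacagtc
The 2 H1 promoters printed hold the H1 box and a CCAAT motif at nearly the same place, 117 and 53 bases before the start in Hist1h1b and 112 and 54 bases before it in Hist1h1c. In Hist1h2bg the octamer lies 59 bases before the start and TATAAA 43 bases before it.

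No histone member was called between the groups, in fits that called few or no genes at all. With all 4 libraries 0 of the 50 members that passed the filter on low values were called at 1 week by limma at an adjusted p of 0.05, where 0% of the 15419 genes tested were called higher and 0% lower. edgeR and DESeq2 on recovered reads also called 0 members, where DESeq2 called 0.104% of all genes higher and 0.0195% lower. Before adjustment, limma put 0 members under 0.05, where it put 2.28% of all genes there as higher and 0.195% as lower. The median log2 difference, 1 week minus on DMBA, was -0.35 over the 50 members, with 11 above and 39 below 0, and -0.02 over all genes tested. Both 1-week libraries lay above both on-DMBA libraries for 3 members (6%, against 14% of all genes) and below both for 9 members (18%, against 9.14% of all genes). In bulk libraries fewer cells of a type and less messenger per cell cannot be told apart.

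The summed histone level was 493 and 722 scaled CPM at 1 week and 1096 and 630.3 on DMBA, a log2 difference of -0.48 (SD 0.39 at 1 week and 0.56 on DMBA, n = 2 each, two-sided exact permutation p = 0.667). The 1-week libraries spanned on-DMBA replicate 2, and only on-DMBA replicate 1 stood above the rest. An exact permutation test of 2 libraries against 2 cannot give a two-sided p below 0.333. Of the 50 members, 38 (76%) had their highest level in on-DMBA replicate 1, where 41.7% of all genes tested did, and 3 had their lowest there, where 37.5% of all genes did. The median member was 1.11 log2 units higher in on-DMBA replicate 1 than in on-DMBA replicate 2, while over all genes this median was 0.05. Against on-DMBA replicate 1 alone the median log2 difference at 1 week was -1.08, and against on-DMBA replicate 2 alone it was 0.06. Both 1-week libraries lay below on-DMBA replicate 1 for 39 members (43.8% of all genes) and above it for 6 (40.2% of all genes). They lay above on-DMBA replicate 2 for 19 members (34.6% of all genes) and below it for 13 (26.1% of all genes). The difference between the mice on DMBA was thus larger than that between the groups.

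**Figure D1:**
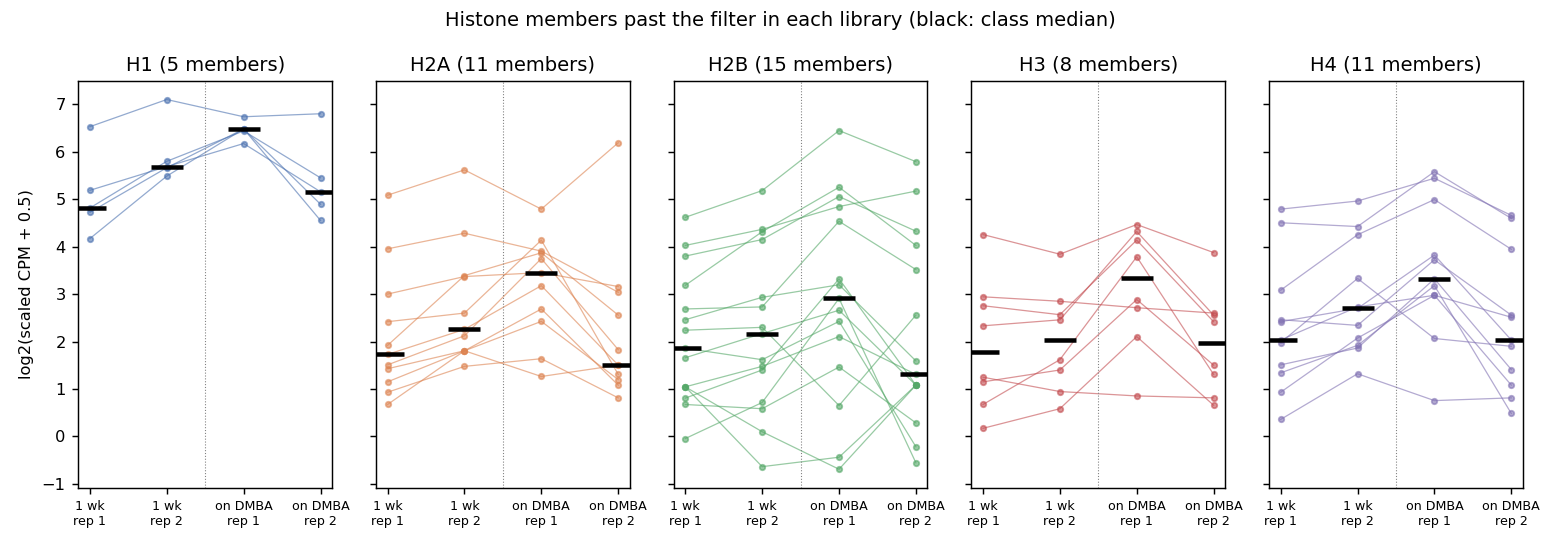
Level of each of the 50 members that passed the filter in the 4 libraries, as log2(scaled CPM + 0.5), in 1 panel per class; thin lines join the same gene and black bars are class medians. In each class the median is highest in on-DMBA replicate 1, where 38 of the 50 genes peak and 3 are at their lowest.

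The calls followed the on-DMBA library kept. Leaving out on-DMBA replicate 1, limma called 0 members (smallest adjusted p = 0.585), where it called 2.35% of all genes higher and 0.999% lower. Leaving out on-DMBA replicate 2, it called 9 of the 50 members lower (18%) and 0 higher, where it called 10% of all genes lower and 14.3% higher. These 9 members were Hist1h1b, Hist1h2ak, Hist1h2af, Hist2h2bb, Hist1h2bb, Hist1h2bg, Hist1h2bh, Hist1h3c and Hist1h3g, named because of that call. The lowest value among them was that of the H3 gene Hist1h3g, at -2.64 (adjusted p = 0.0046). Each of these fits sets 2 mice against 1, whose spread is assumed to be that of the other group.

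**Figure D2:**
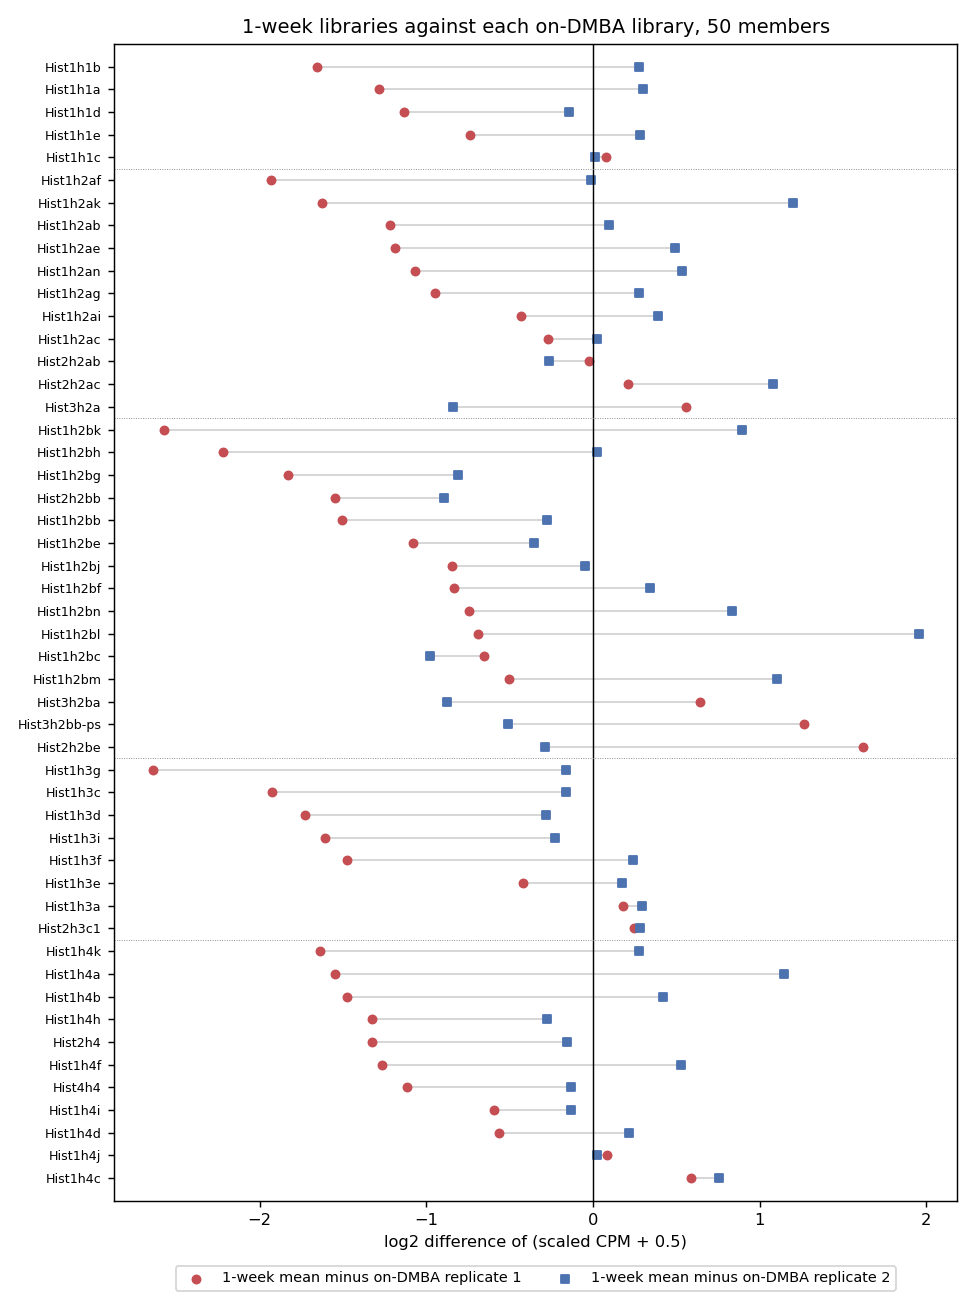
Log2 difference of the mean of the 1-week libraries against on-DMBA replicate 1 (red circles) and against on-DMBA replicate 2 (blue squares) for the 50 members, with dotted lines between classes H1, H2A, H2B, H3 and H4 from top to bottom. Most red circles lie left of 0 (median -1.08), while the blue squares lie on both sides (median 0.06).

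The linker histones bind DNA between nucleosomes and compact chromatin. Hist1h1c, which encodes the H1.2 subtype, was at 91.9 and 137 scaled CPM at 1 week and 106 and 111 on DMBA. Its groups overlapped, and the log2 difference was 0.05 (SE 0.51). The other somatic subtypes had another pattern. Hist1h1d was at 27.7 and 55.2 at 1 week and 86.3 and 43.3 on DMBA, Hist1h1a at 25.9 and 50.2 at 1 week and 88.8 and 29.3 on DMBA, and Hist1h1b at 17.5 and 44.4 at 1 week and 88.9 and 23 on DMBA. Hist1h1e was at 35.9 and 51.1 at 1 week and 71.7 and 35.2 on DMBA. Each of these 4 was highest in on-DMBA replicate 1, and in each the groups overlapped. The class median was -0.49 with all libraries, -1.13 against on-DMBA replicate 1 alone and 0.28 against on-DMBA replicate 2 alone. Hist1h1t, the testis linker histone, had 6 and 2 reads at 1 week and 0 and 4 on DMBA, below the filter.

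H2A pairs with H2B on the outer faces of the nucleosome. Hist3h2a, the H2A gene of cluster 3, was at 33.4 and 48.6 scaled CPM at 1 week and 27.2 and 72.5 on DMBA, so that the mice on DMBA took both ends of the range. Hist2h2ac was at 15 and 19 at 1 week and 14.5 and 7.72 on DMBA, the only H2A gene whose groups did not overlap, with a log2 difference of 0.65 (SE 0.64), or 0.21 against on-DMBA replicate 1 alone and 1.08 against replicate 2 alone. Its counting intervals overlapped between 1-week replicate 1 (12.2 to 18.3) and on-DMBA replicate 1 (12 to 17.3, exact Poisson, 95%). Such intervals cover counting error only. Hist1h2ac was at 7.5 and 9.84 at 1 week and 10.4 and 8.44 on DMBA, and Hist2h2ab at 1.09 and 3 at 1 week and 1.9 and 2.33 on DMBA. The H2A class median was -0.21, with -0.95 against on-DMBA replicate 1 alone and 0.28 against on-DMBA replicate 2 alone. Of the 11 H2A members that passed the filter, 8 were highest in on-DMBA replicate 1. Among them Hist1h2ak was at 4.84 and 5.56 at 1 week and 17.1 and 1.97 on DMBA, and Hist1h2af at 2.34 and 3.85 at 1 week and 12.9 and 3.05 on DMBA. For Hist1h2ak the libraries on DMBA were the highest and the lowest of the 4. Hist1h2aa, a testis variant, had 2 and 0 reads at 1 week and 1 and 1 on DMBA.

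The summed level of the H2B genes was 92.2 and 125 scaled CPM at 1 week and 252 and 154 on DMBA, a log2 difference of -0.88 (SD 0.31 at 1 week and 0.50 on DMBA, n = 2 each; two-sided exact permutation p = 0.333, the smallest this design allows, and 0.8 after Benjamini-Hochberg adjustment over the 6 sums tested). In scaled CPM it was the only class sum with no overlap between the groups. In plain CPM, without the authors' scaling, the H2A sum did not overlap either, at 87.7 and 103 at 1 week and 105.3 and 107 on DMBA. The H2B sum rests most on Hist2h2bb and Hist1h2bc, its genes with the highest mean levels. With these left out, the groups overlapped in the H2B sum too, and on-DMBA replicate 2 lay between the 1-week libraries. For 13 of the 17 H2B genes the groups overlapped, so the separate sums are not a trait of each gene. The H2B median log2 difference was -0.45 over 15 members, -0.83 against on-DMBA replicate 1 alone and -0.28 against on-DMBA replicate 2 alone, and it stayed below 0 without either 1-week library. Both 1-week libraries lay below both on-DMBA libraries for 4 of the 15 members, where this held for 9.14% of all genes tested, for 3 of 8 H3 members and for 2 of 11 H4 members. Hist2h2bb was at 24.1 and 35.8 at 1 week and 86.8 and 54.9 on DMBA, a log2 difference of -1.22 (SE 0.55), with -1.55 against on-DMBA replicate 1 alone and -0.89 against replicate 2 alone. Every 50-base window of the Hist2h2bb transcript model (100%) also occurs, in either orientation, in another gene's transcript, so its reads may be shared. For the Hist1h2bc model this holds for 30.6% of windows, which occur in 220 other genes. Hist1h2bg was at 5.94 and 6.13 at 1 week and 22.7 and 10.9 on DMBA, a log2 difference of -1.32 (SE 0.68), with -1.83 against on-DMBA replicate 1 alone and -0.81 against replicate 2 alone. Hist1h2bc was at 15.8 and 20.1 at 1 week and 28.3 and 35.5 on DMBA, a log2 difference of -0.81 (SE 0.54), with -0.65 against on-DMBA replicate 1 alone and -0.98 against replicate 2 alone. Unlike most members it was higher in on-DMBA replicate 2 than in replicate 1. These 3 genes were also the only ones, of the 12 members with separate groups, whose counting intervals were separate between the nearest libraries of the groups (exact Poisson, 95%). Hist1h2be was at 13.4 and 17.3 at 1 week and 32.8 and 19.6 on DMBA, and its intervals overlapped. None of these 4 passed in limma (adjusted p = 0.9997 each).

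The other H2B genes outside the main cluster had fewer reads. Hist2h2be, whose human counterpart is known to have a polyadenylated form, was at 4.22 and 4.42 scaled CPM at 1 week and 1.07 and 5.38 on DMBA. Hist3h2ba was at 1.56 and 0.143 at 1 week and 0.237 and 1.62 on DMBA, and the pseudogene Hist3h2bb-ps was at 1.56 and 0.571 at 1 week and 0.119 and 1.62 on DMBA. For Hist2h2be and Hist3h2bb-ps on-DMBA replicate 1 was the lowest library, the reverse of the common pattern. The testis variant Hist1h2ba had 6 and 0 reads at 1 week and 0 and 0 on DMBA. A count of 0 allows up to 3 reads, which is 0.428 scaled CPM in 1-week replicate 2 and 0.356 and 0.538 in the on-DMBA libraries.

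**Figure D3:**
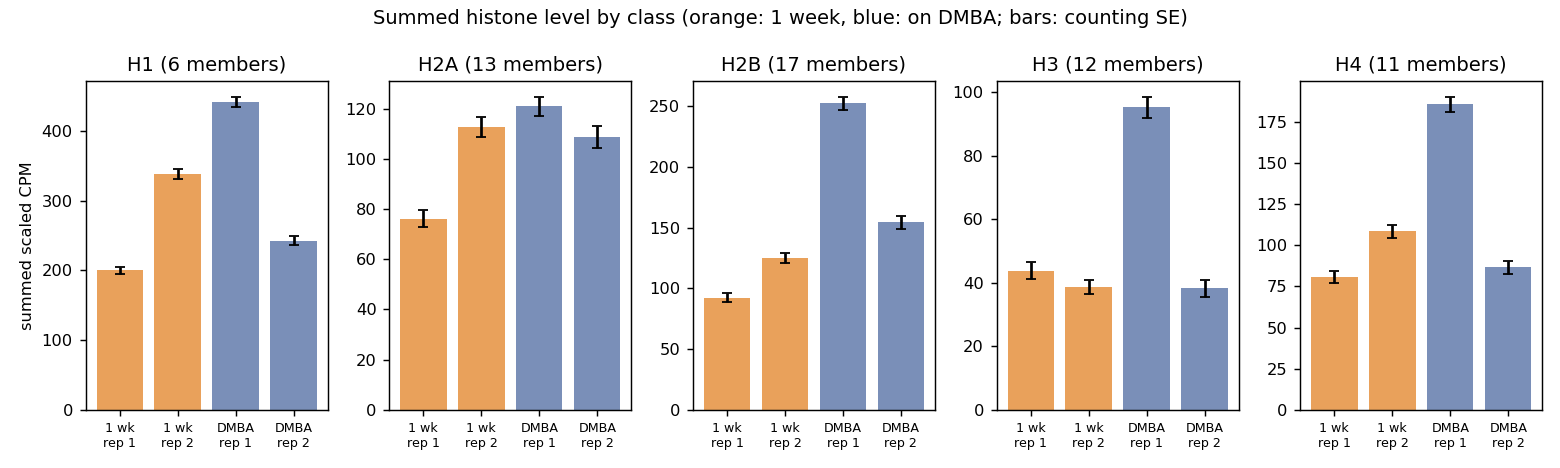
Summed scaled CPM of all members of each class in the 4 libraries, 1 week in orange and on DMBA in blue; error bars are the counting SE of the sum, not a spread between mice. The H2B sums are 92.2 and 125 at 1 week, both below the 252 and 154 on DMBA, and in the other classes the groups overlap.

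H3 and H4 form the core of the nucleosome. Hist1h3e was at 18.6 and 13.8 scaled CPM at 1 week and 21.6 and 14.2 on DMBA. Hist1h3c was at 4.53 and 4.99 at 1 week and 19.5 and 5.38 on DMBA, a log2 difference of -1.04 (SE 0.84), with -1.93 against on-DMBA replicate 1 alone and -0.16 against replicate 2 alone. Hist1h3f was at 6.25 and 5.42 at 1 week and 17.1 and 4.85 on DMBA. In both, on-DMBA replicate 1 was high and the other 3 libraries were close together. Hist1h3d was at 0.625 and 0.998 at 1 week and 3.8 and 1.08 on DMBA, and Hist1h3g was at 1.09 and 2.57 at 1 week and 13.3 and 1.97 on DMBA. The H3 genes with both 1-week libraries on top were Hist1h3a, at 7.19 and 6.7 at 1 week and 6.06 and 5.56 on DMBA, and Hist2h3c1, at 1.88 and 1.43 at 1 week and 1.31 and 1.26 on DMBA. Both differences were within the counting intervals of single libraries. The H3 class median was -0.77 with all libraries, -1.54 against on-DMBA replicate 1 alone and 0.01 against on-DMBA replicate 2 alone. Of the 9 members below the filter, 4 were H3 genes. Of these Hist1h3b had 2 and 0 reads at 1 week and 22 and 1 on DMBA, and Hist1h3h had 2 and 2 at 1 week and 18 and 1 on DMBA. Hist2h3c2 and Hist2h3b had at most 7 reads in any library.

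Among the H4 genes, Hist1h4d was at 27.2 and 30.7 scaled CPM at 1 week and 43 and 24.8 on DMBA, and Hist1h4h at 7.97 and 18.5 at 1 week and 31.3 and 14.9 on DMBA. Hist4h4, the lone gene of the fourth cluster, was at 22.2 and 21 at 1 week and 47.4 and 23.7 on DMBA, a log2 difference of -0.62 (SE 0.59), with -1.12 against on-DMBA replicate 1 alone and -0.13 against replicate 2 alone. Hist2h4 was at 5 and 4.56 at 1 week and 12.7 and 5.38 on DMBA, a log2 difference of -0.74 (SE 0.74), with -1.32 against on-DMBA replicate 1 alone and -0.16 against replicate 2 alone. In both genes the groups were separate, but on-DMBA replicate 2 lay within counting error of the 1-week libraries. Hist1h4c was at 3.44 and 9.56 at 1 week and 3.68 and 3.23 on DMBA, the highest log2 difference of all members at 0.67 (SE 0.79), carried by 1-week replicate 2. The class median was -0.37, with -1.27 against on-DMBA replicate 1 alone and 0.22 against on-DMBA replicate 2 alone.

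The excess in on-DMBA replicate 1 was commonest in the main cluster. Of the cluster 1 members (chromosome 13) that passed the filter, 35 of 40 were highest in that library, against 2 of 6 in cluster 2 (chromosome 3), 0 of 3 in cluster 3 (chromosome 11) and the 1 member of cluster 4 (chromosome 6). The median log2 difference between on-DMBA replicates 1 and 2 was 1.35 in cluster 1, 0.35 in cluster 2 and -1.52 in cluster 3. These groups of genes were not tested against each other. Members whose transcript model runs on beyond the stem-loop differed between the on-DMBA replicates by a median of 0.78 (21 members), those whose model ends near it by 1.27 (14 members) and those with no match by 1.58 (15 members). These groups rest on the annotated models, mix genes of several clusters and were not tested against each other either. Neighbouring genes that point away from each other, with starts at most 500 bases apart, were sought among the 53 members with a RefSeq promoter. Members without a promoter were not searched. The search gave 7 pairs, each of an H2A and an H2B gene. Both partners were highest in on-DMBA replicate 1 in 5 of the 7 pairs, among them the pair of Hist1h2ah, a gene below the filter. Both partners passed the filter in 4 pairs, and in 2 of these their log2 differences at 1 week had the same sign. In 1 such pair the H2A gene Hist1h2ae was at 2.81 and 4.28 scaled CPM at 1 week and 8.55 and 2.33 on DMBA, with its partner Hist1h2bg as given above.

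Reads of these genes cannot always be assigned to 1 member. Of the 59 members, 55 share at least 1 window of 50 bases in their GENCODE model exactly with a transcript of another gene. Windows were matched in either orientation, so a shared window can be antisense to the other transcript. The median share of such windows was 62% in H3, 58% in H2A, 43.8% in H2B, 28.9% in H4 and 1.13% in H1. For Hist2h2bb, Hist2h3c1 and Hist2h3b it was 100%. The sources used here do not give how the authors treated reads with several positions, so values of single H2A, H2B, H3 and H4 genes are uncertain. Counts were also small: 33 members had at least 10 reads in every library, and 7 had fewer than 10 in each.

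The genes that make and mature histone messengers were also mostly highest in on-DMBA replicate 1. Of 18 measured processing and transcription genes 0 passed in limma, and their median log2 difference was -0.39, with 14 highest in on-DMBA replicate 1. Slbp was at 39.2 and 72.2 scaled CPM at 1 week and 68.5 and 51 on DMBA. Npat, the coactivator of histone transcription, was at 21.4 and 23.3 at 1 week and 54.4 and 22.8 on DMBA, and Casp8ap2, also called FLASH, was at 33 and 64.3 at 1 week and 91.1 and 48.6 on DMBA. The U7 particle genes Lsm10 and Lsm11 were at 11.4 and 10.6 at 1 week and 5.22 and 10.9 on DMBA, and at 21.9 and 17.3 at 1 week and 21.1 and 20.1 on DMBA. Zfp473, a zinc finger gene of histone pre-mRNA processing, was at 1.09 and 0.856 at 1 week and 2.37 and 1.44 on DMBA. Snrpd3, a shared Sm core gene, was at 4.06 and 5.71 at 1 week and 44.8 and 4.13 on DMBA. On-DMBA replicate 1 was thus the highest library for Npat and Snrpd3 but not for Slbp, Lsm11 or Lsm10.

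Of 18 histone chaperone genes 0 passed, with a median of -0.44 and 16 highest in on-DMBA replicate 1. Chaf1a, a subunit of the assembly factor CAF-1, was at 16.9 and 27.2 scaled CPM at 1 week and 77.5 and 10.2 on DMBA, Asf1b at 6.41 and 6.13 at 1 week and 15.9 and 2.69 on DMBA, and Nasp at 36.1 and 78 at 1 week and 178 and 55.1 on DMBA. The smallest unadjusted p values belonged to Nap1l1, Supt16h, Asf1a and Atrx, with log2 differences of -1.15, -1.01, -0.93 and -0.76. Replacement histones are typically made through the cell cycle from polyadenylated messengers. The list used here is wider and holds other variants, among them H2afx and Cenpa, to which that description need not apply. All 11 tested genes of the list had a log2 difference below 0 (median -0.36). Of these 0 passed and 9 were highest in on-DMBA replicate 1. H3f3a was at 247 and 391 at 1 week and 316 and 363 on DMBA, and H3f3b at 414 and 629 at 1 week and 787 and 724 on DMBA. H2afz was at 148 and 305 at 1 week and 386 and 194 on DMBA, H1f0 at 78.1 and 112 at 1 week and 143 and 82 on DMBA, and H2afx at 23.9 and 18 at 1 week and 57 and 11.1 on DMBA. H2afv, Cenpa, H2afy and H2afy2, with the smallest p values of the list, had log2 differences of -0.67, -0.83, -0.62 and -0.91. The replacement H3 genes lay closer together in the mice on DMBA than H2afx did.

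Replication genes were also mostly highest in on-DMBA replicate 1. Of 38 DNA replication genes 37 were highest in on-DMBA replicate 1, with a median log2 difference of -0.37 and 0 past the threshold. Pcna was at 81 and 148 scaled CPM at 1 week and 211 and 86.5 on DMBA, the helicase gene Mcm2 at 25.5 and 37.4 at 1 week and 118 and 15.1 on DMBA, and the ribonucleotide reductase gene Rrm2 at 22.3 and 32.5 at 1 week and 149 and 5.38 on DMBA. Pola1, Rfc3 and Rfc1, with the smallest p values of that list, had log2 differences of -1.51, -1.10 and -0.93. Of 12 S phase entry genes 11 were highest in on-DMBA replicate 1 and 0 passed, with Ccne1 at 8.91 and 8.27 at 1 week and 22.8 and 3.77 on DMBA, Ccne2 at 3.44 and 9.41 at 1 week and 16.2 and 2.51 on DMBA, and Ccna2 at 23.8 and 39.5 at 1 week and 122 and 16.7 on DMBA. E2f8, Cdk2 and E2f2 had log2 differences of -0.98, -0.34 and -0.46. All 19 mitosis genes were highest there and 0 passed, with Mki67 at 53.3 and 88 at 1 week and 572 and 40.4 on DMBA and Top2a at 78.8 and 176 at 1 week and 582 and 74.7 on DMBA. Kif23, Cenpf and Cenpe had log2 differences of -1.49, -1.56 and -1.26.

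The histone sum did not scale with the replication genes. Divided by the summed level of the 38 replication genes, the summed level of the 59 histone genes was 0.591 and 0.55 at 1 week and 0.366 and 0.836 on DMBA. The ratio was thus lowest in the library with the most histone messenger and highest in the other library on DMBA, and the groups overlapped. Without Hist1h1c it was 0.481 and 0.446 at 1 week and 0.331 and 0.688 on DMBA. Against the 19 mitosis genes the ratio was 1.29 and 1.1 at 1 week and 0.414 and 2.13 on DMBA. Over the members the median excess of on-DMBA replicate 1 over replicate 2 was 1.11 log2 units, against 1.73 for DNA replication, 1.96 for S phase entry and 2.95 for mitosis genes. The median log2 level in on-DMBA replicate 2 was 1.97 for the members and 3.84, 3.04 and 3.47 for these lists. A log2 difference with a pseudocount understates the change of low genes, so these medians are not on equal terms. The epithelial, fibroblast and myeloid marker sums also differed between the same libraries, and their part in the histone result was not tested.

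**Figure D4:**
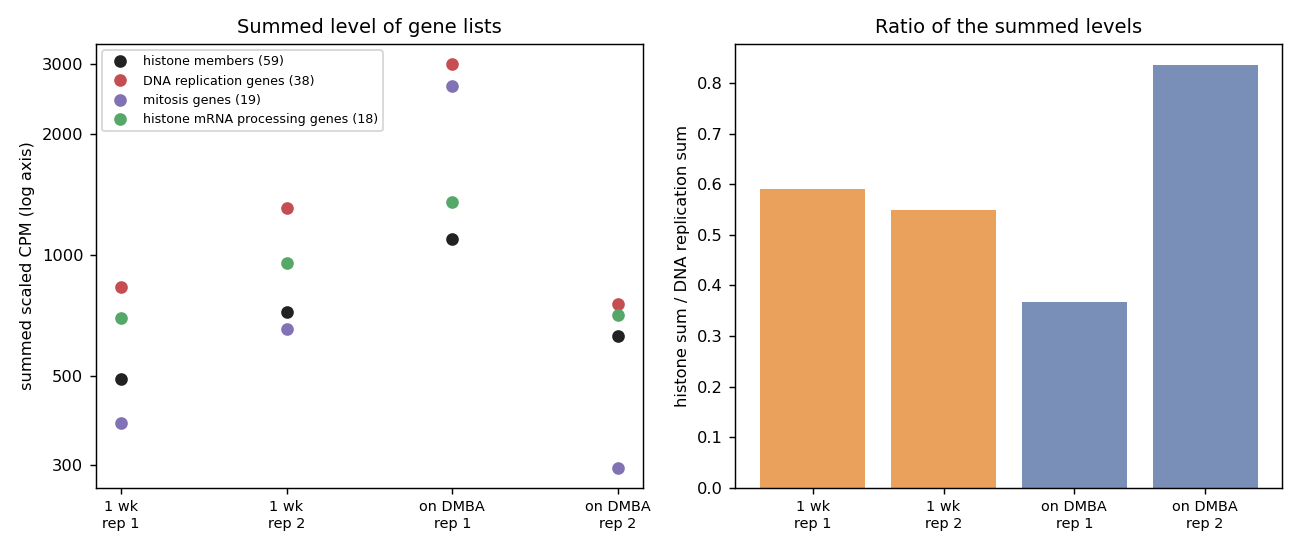
Left: summed scaled CPM (log axis) of the histone members and of 3 related gene lists in each library. Right: the histone sum divided by the DNA replication sum, 0.591 and 0.55 at 1 week and 0.366 and 0.836 on DMBA, lowest in on-DMBA replicate 1, where every sum in the left panel is highest.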

How the data were processed

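RNA from sorted tumour cells of 4 mice, 2 per group, was depleted of ribosomal RNA and made into strand-marking libraries, per the labels' protocols. Per the submitters' processing notes, the build was mm9 and the tools were edgeR 3.2.3, HTSeq, TopHat2 2.1 and CASAVA 1.8.2. The sources used here name neither the counting annotation nor its strand setting. The authors deposited 1 table of normalised signal per gene, whose columns sum to 867697 and 1092838 at 1 week and 1149287 and 1011509 on DMBA, hence the name scaled CPM. All values (100%) were whole multiples of a step of 0.156 and 0.143 at 1 week and 0.119 and 0.179 on DMBA, within 0.01 reads, so whole read counts were recovered. The ribosomal gene Rn45s took 3.95% and 3.35% of reads at 1 week and 6.17% and 4.77% on DMBA.

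Genes with at least 1 scaled CPM in at least 2 libraries were fitted with limma 3.58.1 in R 4.3.3 (pseudocount 0.5, eBayes with trend, two-sided, Benjamini-Hochberg adjustment over all 15419 genes, threshold 0.05). This filter kept 50 members. A log2 difference on this scale understates the change of low genes. edgeR 4.0.16 and DESeq2 1.42.0 were run on recovered reads as alternatives, with those listed in the closing part. The limma and edgeR fits were also run on simulated counts, whose outcome is not given here. The labels name a separate mouse for each library. The members and lists were chosen with earlier results of these data known. Values are printed by rule for the 3 highest members of each class, members with separate groups (up to 2 per direction and class), all passing members of clusters 2 to 4, testis variants, 22 fixed related genes and up to 4 genes with the smallest p of each related list; other members named were chosen after their values were seen. One gene that the rule names is not reported here. The GENCODE and RefSeq references are of a later build than mm9 and served for names and sequences only.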

Additional observations from a re-analysis of the deposited data

How the results depend on the processing

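With all 4 libraries 0 members were called under every alternative fit: a pseudocount of 0.1 or 1, no filter on low values or one of 5 scaled CPM, plain CPM, median ratio scaling, eBayes without the trend, edgeR, DESeq2 and a replicate block. Over all genes DESeq2 called 19 and the replicate block called 288, against 0 in limma and edgeR. The replicate numbers mark different mice and do not pair them (deviations of same-numbered libraries correlated at 0.015), so the block is no paired analysis, and it called 0 members. Leaving out single libraries gave 0 to 3761 calls over all genes (516 without on-DMBA replicate 1, 3761 without on-DMBA replicate 2) and 0 to 9 calls among members (9 without on-DMBA replicate 2). The member median ranged from -0.60 to -0.22 over the other alternatives, and from -1.08 to 0.06 when libraries were left out. The class medians with a library left out ran from -1.13 to 0.28 in H1, -0.95 to 0.28 in H2A, -0.83 to -0.28 in H2B, -1.54 to 0.0053 in H3 and -1.27 to 0.22 in H4, each highest without on-DMBA replicate 1 and lowest without on-DMBA replicate 2. The log2 difference of the histone sum ran from -0.88 to -0.08 when libraries were left out and was -0.33 in plain CPM and -0.53 with median ratio scaling. Plain CPM moved the median of all genes to 0.11, against -0.02. Rrm2 was at 2.22 without on-DMBA replicate 1 (limma adjusted p = 0.00302) and -2.44 without on-DMBA replicate 2 (6.57e-05), against -0.11 with all libraries. The cause of these shifts was not tested. Depth limits single members most, since the median count per member and library was 28.5 reads.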
